A study of Mus musculus with 32 samples.

Results

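Rag1, Rag2, Dntt and Arpp21 were followed through the sorted thymocyte gates of the mouse embryo. They were chosen by name as the transcripts of the V(D)J recombinase, of terminal transferase and of an RNA-binding protein of early thymocytes. Of the 4 genes, 3 were among the 19404 genes of the E15.5 table and 4 among the 26244 genes of the E19.5 table. Dntt had no row at E15.5 and is not analysed here at that stage. Every row of both tables held at least 1 value above 0.

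RAG1 and RAG2 together form the recombinase that cuts DNA between antigen receptor gene segments and their recombination signals, so that T-cell and B-cell receptor genes can be assembled. Both proteins are needed for the cut. Dntt encodes terminal deoxynucleotidyl transferase (TdT), which adds nucleotides without a template at the joins and is known for being scarce in fetal lymphocytes. Arpp21 encodes a cyclic AMP-regulated phosphoprotein that binds RNA. It is abundant in immature thymocytes and hosts the microRNA gene Mir128-2 in an intron. BCL11b is a transcription factor of T-lineage commitment. ID2 is an inhibitor of the E proteins, the E-box-binding factors that drive lymphocyte genes, and marks innate lymphoid cells.

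All 32 libraries came from the embryonic thymus of one mouse strain, 5x polychromILC, known for carrying fluorescent reporters of innate lymphoid regulators. DN1 cells, the earliest stage of thymocytes without CD4 and CD8, were separated at E15.5 into BCL11b+ID2-, BCL11b+ID2+, BCL11b-ID2- and BCL11b-ID2+ gates (n = 3 each), and DN2 cells, the next stage, were taken beside them (n = 2). At E19.5 the same 5 gates and a BCL11blowID2low gate of DN1 cells had n = 3 each. No group carried a treatment or a deletion. The labels do not say whether replicates came from different animals. P-values therefore reflect the variation among the libraries at hand, and that variation could be technical.

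Values are the deposited DESeq-normalised read counts, each stage in its own table, so levels are never set against each other across stages. An E15.5 library held 12030749 to 20709387 reads, of which 50.758 to 79.992% were mitochondrial ribosomal RNA, and 1 read was worth 0.5597 to 1.6359 normalised counts. An E19.5 library held 2599470 to 9498133 reads, 28.719 to 58.791% of them mitochondrial ribosomal RNA, and 1 read was worth 0.5905 to 1.7804. At E19.5 Id2 followed the gates, and Bcl11b parted the BCL11b+ from the BCL11b- gates, but at 376 to 491 in BCL11blowID2low it overlapped the 409 to 596 of BCL11b+ID2+. At E15.5 the sorted genes followed the gates except in 2 libraries: Bcl11b stood at 509 in replicate 1 of the BCL11b-ID2+ gate, against 7.03 and 56.1 in its other libraries, and Id2 at 85.0 in replicate 1 of the BCL11b+ID2+ gate, below the 126 of replicate 1 of the BCL11b-ID2- gate. Il2ra, the CD25 chain that marks DN2 cells, was at 28887 to 29785 in DN2 at E15.5 and at most 3997 in any DN1 library. At E19.5 it was at 7149 to 8762 in DN2 and at most 2626 in DN1.

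Rag1 (ENSMUSG00000061311) lies on the minus strand at chr2:101638282-101649501 and Rag2 (ENSMUSG00000032864) on the plus strand at chr2:101624718-101632529, in GRCm38 with GENCODE M21 gene models. The genes point at each other, with 5752 bases between their 3′ ends. Dntt (ENSMUSG00000025014) spans chr19:41029275-41059525 on the plus strand in 13 exon blocks, and Arpp21 (ENSMUSG00000032503) spans chr9:112065091-112235938 on the minus strand in 35. Merged exon lengths were 6608, 3424, 2292 and 17428 bases for Rag1, Rag2, Dntt and Arpp21. The gene B230118H07Rik runs through the whole Rag locus on the strand of Rag1, and its exons share 80 bases with those of Rag1 and 208 with those of Rag2. The exons of 2900079G21Rik share 580 bases with those of Arpp21 on the opposite strand. The sources used here do not say whether the authors counted by strand, so reads in these shared bases, 1.211%, 6.075% and 3.328% of the exon bases of Rag1, Rag2 and Arpp21, could belong to either gene.

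**Figure D1:**
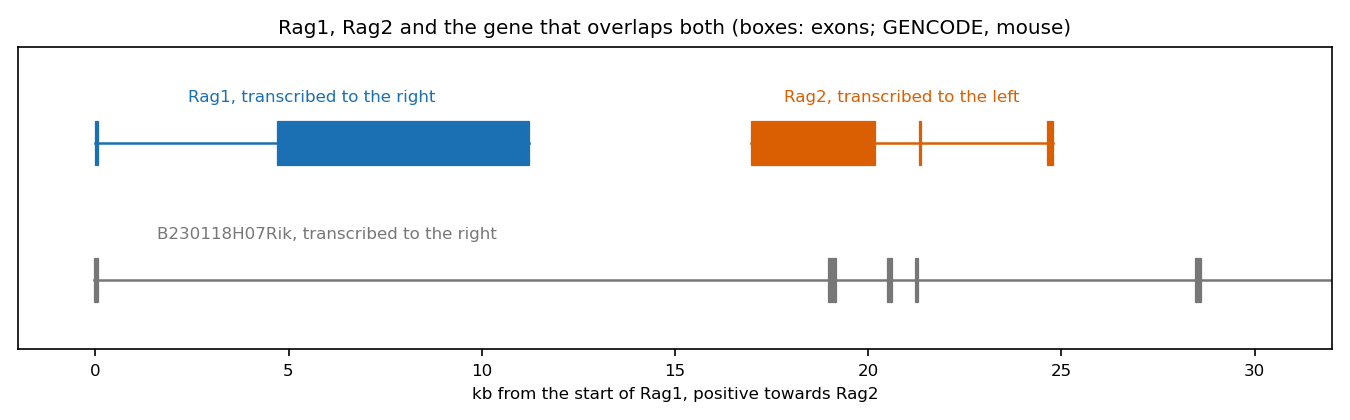
Map of the Rag locus to scale, with distance in kb from the start of Rag1 along the x axis, positive towards Rag2, boxes for exons and lines for introns. Rag1 and Rag2 are transcribed towards each other with 5.752 kb between their 3′ ends, and B230118H07Rik, which runs on past the right edge, overlaps both.

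The 250 bases before each annotated start are printed. The reason is that Rag1, Rag2 and Arpp21 were all lower in BCL11b+ID2+ than in BCL11b+ID2- at E15.5, where Dntt is not analysed. E proteins, Runx and GATA factors are known regulators of lymphocyte genes, so their motifs are marked. Whether they act on these 4 genes through these windows was not tested. Sequences and starts are RefSeq's for GRCm38.p6, and 4 of 4 genes matched by symbol. Capitals mark E-boxes (CANNTG), the Runx core (TGTGGT) and the GATA core (GATAA), each searched on both strands. The letters run 5′ to 3′ on the gene's strand, the last base standing just before the start.
Rag1, chr2:101649533-101649782, minus strand: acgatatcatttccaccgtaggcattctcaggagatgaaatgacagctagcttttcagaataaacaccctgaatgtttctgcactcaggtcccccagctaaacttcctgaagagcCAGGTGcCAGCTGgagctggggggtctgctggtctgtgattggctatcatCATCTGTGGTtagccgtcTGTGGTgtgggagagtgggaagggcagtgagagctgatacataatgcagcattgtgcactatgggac
Rag2, chr2:101624462-101624711, plus strand: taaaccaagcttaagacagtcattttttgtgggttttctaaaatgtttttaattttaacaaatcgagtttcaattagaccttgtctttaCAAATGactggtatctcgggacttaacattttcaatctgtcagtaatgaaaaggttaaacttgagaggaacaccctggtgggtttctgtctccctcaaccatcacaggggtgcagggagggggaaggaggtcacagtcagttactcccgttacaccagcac
Dntt, chr19:41029025-41029274, plus strand: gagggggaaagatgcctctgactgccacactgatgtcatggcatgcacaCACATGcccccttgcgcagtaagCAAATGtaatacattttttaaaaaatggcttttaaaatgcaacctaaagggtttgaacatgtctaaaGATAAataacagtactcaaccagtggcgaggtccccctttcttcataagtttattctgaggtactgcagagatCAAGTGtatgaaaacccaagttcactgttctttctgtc
Arpp21, chr9:112233723-112233972, minus strand, the outermost of 9 RefSeq starts: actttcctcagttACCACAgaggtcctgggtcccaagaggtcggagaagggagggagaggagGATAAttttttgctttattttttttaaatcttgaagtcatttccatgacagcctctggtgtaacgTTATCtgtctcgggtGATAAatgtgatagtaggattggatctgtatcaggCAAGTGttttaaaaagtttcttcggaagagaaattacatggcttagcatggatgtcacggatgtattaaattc
The Rag1 window held 3 E-boxes, the first bases of which lay 135, 128 and 85 bases before the start, and 2 Runx cores at 81 and 67 bases. The last E-box and the first Runx core overlapped, so the capitals run together there. The Rag2 window held 1 E-box at 161 bases and neither of the other motifs. The Dntt window held 3 E-boxes at 201, 178 and 38 bases and 1 GATA core at 111 bases. The Arpp21 window held 1 E-box at 73 bases, 3 GATA cores at 188, 123 and 108 bases and 1 Runx core at 237 bases, of which the Runx core and the GATA core at 123 bases were on the opposite strand. Among 32851 such windows of 27025 genes, 66.2% held an E-box and 12.2% held 3 or more. A Runx core was in 14% and 2 or more in 1.27%. A GATA core was in 22.6% and 3 or more in 0.712%. These matches are letters in a window and show no binding.

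Rag1, the larger recombinase subunit and its catalytic one, was high at E15.5 in the BCL11b+ID2- gate and in DN2. It was at 11238, 4815 and 5663 normalised counts in the 3 BCL11b+ID2- libraries and at 3536 and 4371 in the 2 DN2 libraries. The BCL11b-ID2- libraries were at 1060, 108 and 162, the BCL11b+ID2+ libraries at 434, 13.99 and 22.9, and the BCL11b-ID2+ libraries at 6.39, 82.0 and 20.8. All BCL11b+ID2- libraries stood above all DN2 libraries, and all of these stood above every other library. BCL11b+ID2+ libraries overlapped those of both BCL11b- gates, which did not overlap each other.

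Rag2, the regulatory subunit, was at 6554, 3219 and 5026 in the BCL11b+ID2- libraries and at 2711 and 6660 in DN2, which overlapped. The BCL11b-ID2- libraries were at 1029, 1761 and 1596, between these and the ID2+ gates with no overlap on either side. The BCL11b+ID2+ libraries were at 5.00, 7.28 and 298 and the BCL11b-ID2+ libraries at 31.97, 11.7 and 5.67. Arpp21 was at 2420, 4604 and 3546 in BCL11b+ID2- and at 1016 and 3367 in DN2. The BCL11b-ID2- libraries were at 221, 384 and 245, the BCL11b+ID2+ libraries at 1.999, 241 and 13.1, and the BCL11b-ID2+ libraries at 13.6, 4.69 and 6.94. The BCL11b+ID2+ gate was uneven in a way that differed by gene: Rag1 was highest in replicate 1, Arpp21 in replicate 2 and Rag2 in replicate 3, each at least an order of magnitude above the other libraries of the gate.

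**Figure D2:**
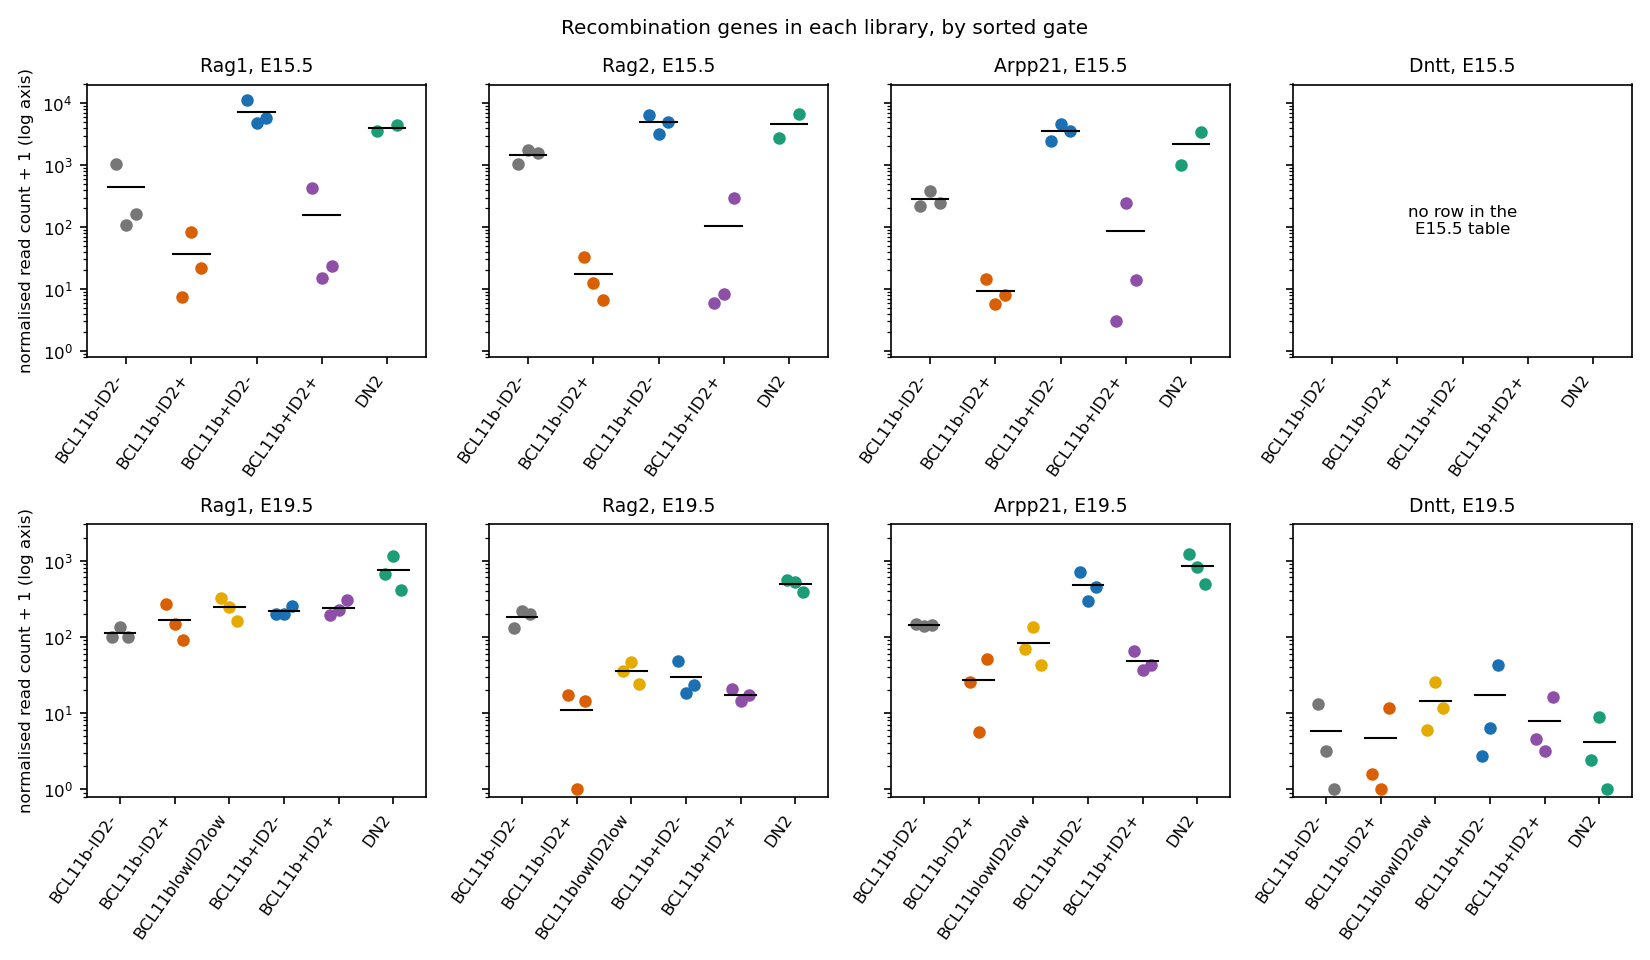
Normalised read count plus 1 (y axis, log scale) of each gene in each library (points) by sorted gate, with lines at the gate means and 1 panel for each gene and stage. At E15.5 Rag1, Rag2 and Arpp21 are highest in BCL11b+ID2- and DN2 and lowest in the ID2+ gates. At E19.5 Rag1 is at 89.8 to 317 outside DN2, and Dntt never exceeds 41.5.

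Among BCL11b+ cells at E15.5, which addresses how the ID2 gate divides cells already positive for BCL11b, all 3 genes were lower in the ID2+ gate. Rag1 had a mean of 157 ± 240 (SD, n = 3) against 7239 ± 3489, Rag2 103 ± 168 against 4933 ± 1669 and Arpp21 85.4 ± 135 against 3523 ± 1092, which are 46.1-fold, 47.7-fold and 41.2-fold differences of means. The libraries of the 2 gates did not overlap for any of them. On the log2(value + 1) scale the difference of Rag1 was -6.97 ± 1.38 (SE, adjusted p = 0.0159, limma), that of Rag2 -7.59 ± 1.35 (adjusted p = 0.00673) and that of Arpp21 -7.29 ± 1.55 (adjusted p = 0.0251). The median of the 3 was -7.29, beside -0.22 over all genes tested. Called genes made up 0.719% of all genes tested in this comparison.

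The 3 calls did not rest equally on the libraries. Rag2 passed the threshold with any 1 of the 6 libraries left out, with adjusted p up to 0.0494. Rag1 lost its call without replicate 1, 2 or 3 of BCL11b+ID2- (adjusted p = 0.106, 0.0640 and 0.0748, limma) and without replicate 3 of BCL11b+ID2+ (adjusted p = 0.0554). Arpp21 kept its call only without replicate 2 of BCL11b+ID2+ (adjusted p = 0.00782) and ranged up to 0.101 without each of the others. It also lost the call without the filter on low values (adjusted p = 0.0527), and edgeR on the whole reads called neither Rag1 nor Arpp21 (adjusted p = 0.061 and 0.0949). Without replicate 1 of BCL11b+ID2+, the library low in Id2, the log2 differences were -8.48 for Rag1, -6.57 for Rag2 and -5.87 for Arpp21, with adjusted p = 0.00538, 0.0289 and 0.0822 in limma. Markers of type 2 innate lymphoid cells moved with these genes in the opposite direction: the sum of the 5 measured of 6 (Il1rl1, Rora, Arg1, Gata3, Il17rb) was 14661 to 18211 in BCL11b+ID2+ libraries and 887 to 2685 in BCL11b+ID2- libraries, with none of the 5 at 0 in a gate, and their part in the result was not tested. In bulk libraries such as these, fewer cells of a type and less RNA per cell cannot be told apart.

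Among BCL11b- cells at E15.5, Rag2 was the 1 gene of the 3 that passed. Its mean was 16.5 ± 13.8 (n = 3) in BCL11b-ID2+ and 1462 ± 384 in BCL11b-ID2-, 88.8-fold lower, a difference of -6.66 ± 1.35 on the log2(value + 1) scale (adjusted p = 0.0188, limma). Rag1 differed 12.2-fold in the means (log2 difference -3.49, adjusted p = 0.383) and Arpp21 33.7-fold (-4.99, adjusted p = 0.188). For each of the 3 the libraries of the 2 gates did not overlap, so the lack of a call for Rag1 and Arpp21 does not show that they were alike. The share of all genes whose libraries did not overlap was not counted, in this or any other comparison. Of all genes tested, 0.467% were called. The call of Rag2 held only without replicate 1 of BCL11b-ID2+, the library high in Bcl11b (adjusted p = 0.0391, limma), and was lost without any of the other 5 libraries, with adjusted p up to 0.132. NK-cell and ILC1 markers (7 of 7 measured, among them Ncr1, Eomes and Tbx21, none at 0 in either gate) summed to 12296 to 16204 in BCL11b-ID2+ and 237 to 925 in BCL11b-ID2-, and their part in the result was not tested.

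The BCL11b gate among ID2- cells gave no call for the 3 genes at E15.5, although in each the BCL11b+ID2- libraries all stood above the BCL11b-ID2- libraries. The differences of means were 16.3-fold for Rag1, 3.37-fold for Rag2 and 12.4-fold for Arpp21, with log2 differences of 4.66 ± 1.38, 1.73 ± 1.35 and 3.63 ± 1.55 and adjusted p = 0.413, 0.884 and 0.677 in limma. Only 1 of the 10289 genes tested was called, 0.00972%. DESeq2 on recovered whole reads called 2 of the 3 here, and 335 of the 10289 genes tested. Among ID2+ cells the libraries of the 2 gates overlapped for all 3 genes, with log2 differences of 1.1801, 0.80 and 1.32 (adjusted p = 0.845, 0.900 and 0.847, limma) and 0.0778% of genes called.

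Between DN2 and BCL11b+ID2- cells at E15.5 the differences were smaller than their SEs. The log2 differences were -0.78 ± 1.54 for Rag1, -0.16 ± 1.51 for Rag2 and -0.88 ± 1.74 for Arpp21, none called (adjusted p = 0.993, 1.0 and 0.993, limma), and SEs of this size leave room for differences of several fold. Called genes were 0.0% of those tested in limma and 0 in edgeR, against 663 at an unadjusted p below 0.05 and 532 in DESeq2. The interaction of the ID2 and BCL11b gates, the ID2 difference in BCL11b+ cells less that in BCL11b- cells, was -3.48 ± 1.95 for Rag1, -0.93 ± 1.91 for Rag2 and -2.31 ± 2.196 for Arpp21 (adjusted p = 0.820, 0.980 and 0.941, limma). It called 0.0% of genes in limma and 0 in edgeR, with 662 at an unadjusted p below 0.05 and 392 in DESeq2. In all, 4 of 18 tests of these genes passed in the 6 comparisons of E15.5, and 9 of 32 in the 8 comparisons of E19.5. Of all genes, 0.0 to 0.719% were called in a comparison of E15.5 and 6.03 to 16.2% in one of E19.5.

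**Figure D3:**
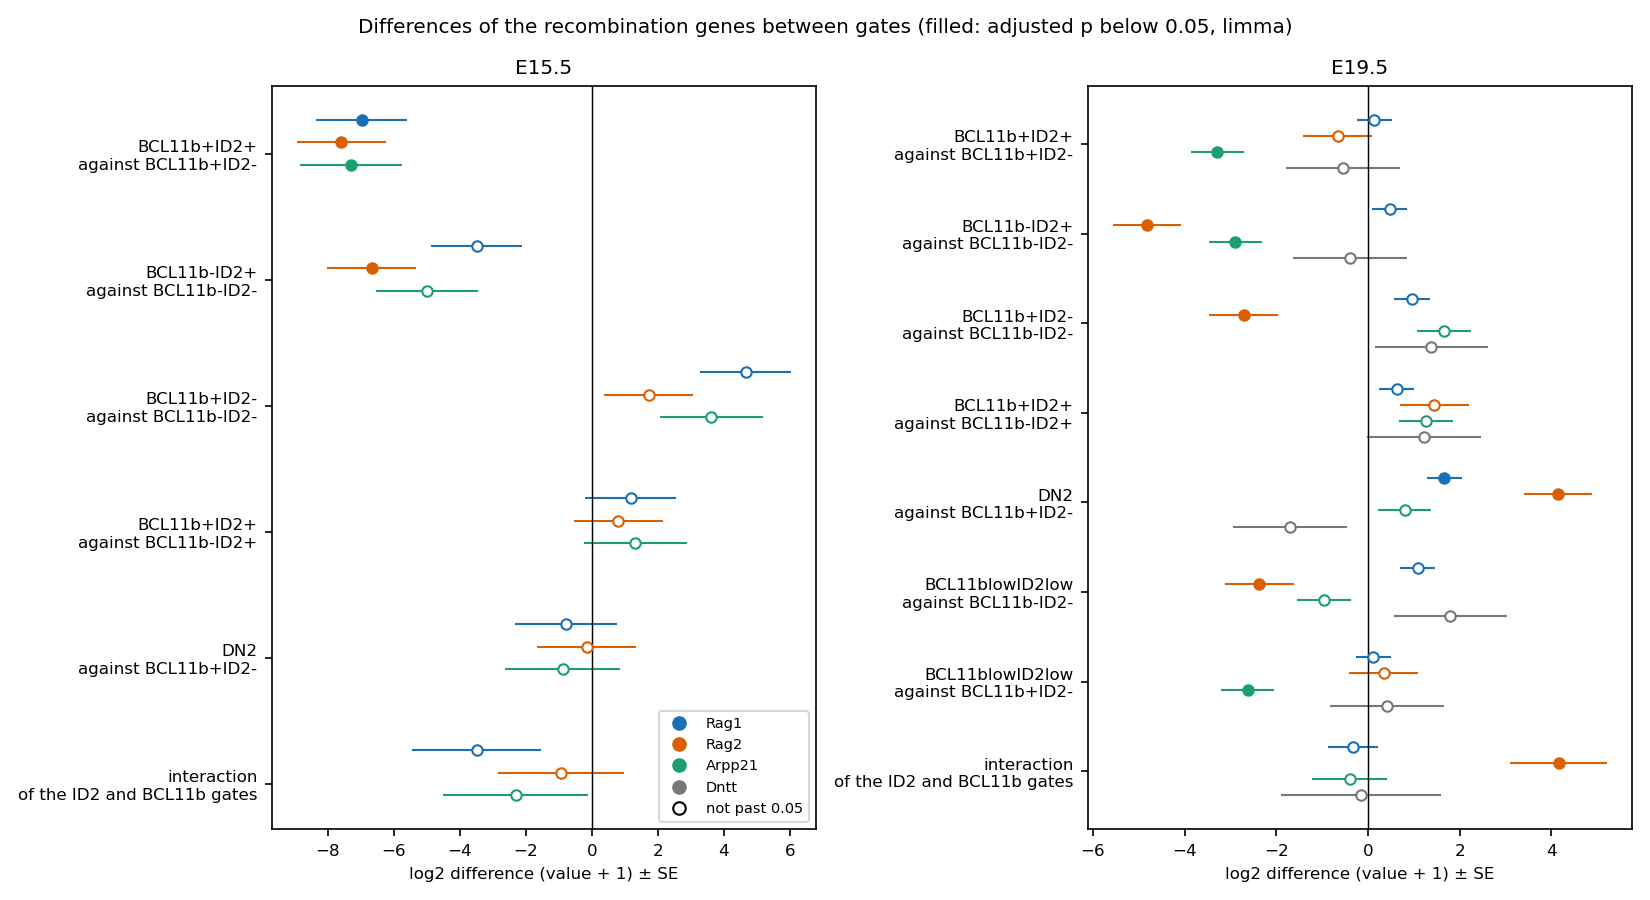
Log2 differences of the genes (x axis, log2(value + 1) scale) in each comparison, with bars of 1 SE from limma; filled points passed the adjusted p threshold of 0.05. The E15.5 comparisons within a BCL11b gate lie far to the left, and at E19.5 the only filled Rag1 point is DN2 against BCL11b+ID2-.

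At E19.5 Rag1 was highest in DN2, at 664, 1162 and 405 normalised counts in replicates 1, 2 and 4. The other gates lay between 89.8 and 317. BCL11blowID2low libraries were at 317, 248 and 159, BCL11b+ID2+ at 194, 222 and 304, BCL11b+ID2- at 198, 196 and 251, BCL11b-ID2+ at 265, 147 and 89.8, and BCL11b-ID2- at 97.6, 135 and 98.0. The DN2 libraries were above all others, and each of the remaining neighbours in this order overlapped. The BCL11b-ID2- libraries, at most 135, stood below all libraries of BCL11blowID2low, BCL11b+ID2+ and BCL11b+ID2-, which were at least 159. Within the E19.5 table the ID2+ gates thus overlapped the BCL11b+ID2- gate in Rag1, which they did not within the E15.5 table.

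Rag2 at E19.5 was at 558, 521 and 384 in DN2 and at 128, 217 and 199 in BCL11b-ID2-. BCL11blowID2low libraries were at 34.9, 45.8 and 23.4 and BCL11b+ID2- libraries at 46.9, 17.1 and 22.1. BCL11b+ID2+ libraries were at 19.6, 13.3 and 16.5 and BCL11b-ID2+ libraries at 16.2, 0 and 13.6. DN2 did not overlap BCL11b-ID2-, BCL11b-ID2- did not overlap the next gate, and the remaining neighbours overlapped. These lower levels rest on few reads, from 0 to 41 in a library across those 4 gates.

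Arpp21 at E19.5 was at 1208, 826 and 498 in DN2 and 712, 296 and 444 in BCL11b+ID2-, which overlapped. BCL11b-ID2- libraries were at 148, 137 and 143, just above the 68.1, 135 and 42.0 of BCL11blowID2low. BCL11b+ID2+ libraries were at 64.1, 35.4 and 41.5 and BCL11b-ID2+ libraries at 24.5, 4.61 and 49.6. So Arpp21 parted BCL11b+ID2- from the other DN1 gates, and Rag2 parted BCL11b-ID2- from them. Mir128-2, the microRNA hosted by Arpp21, had means of 1.81 in BCL11b+ID2- and 1.178 in DN2 and was listed at 0 in the other gates. Those means rest on 5 and 4 reads in all. The opposite-strand gene 2900079G21Rik was at 92.0, 0 and 1.84 in the BCL11b+ID2- libraries, so 1 library made its mean of 31.3, and its mean was at most 0.723 in any other gate.

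Dntt at E19.5 lay near the floor of detection. The BCL11b+ID2- libraries were at 1.74, 5.36 and 41.5, of which the last, replicate 4, held 45 of the 51 reads of the gate. BCL11blowID2low libraries were at 4.98, 24.6 and 10.5, BCL11b+ID2+ at 3.56, 2.21 and 15.2, and BCL11b-ID2- at 12.2, 2.17 and 0. BCL11b-ID2+ libraries were at 0.599, 0 and 10.6 and DN2 libraries at 1.41, 7.99 and 0, with 19 and 13 reads in each gate. All gates overlapped, and none of the 8 comparisons called Dntt; the adjusted p ranged from 0.395 to 0.972 in limma. Differences in TdT transcript were not detectable at this depth.

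Within BCL11b+ cells at E19.5, Arpp21 alone of the 4 was called lower in the ID2+ gate. Its means were 47.0 ± 15.1 (n = 3) and 484 ± 211, 10.3-fold apart, and it fell by 3.29 ± 0.58 on the log2 scale (adjusted p = 0.000553, limma). Rag1 differed by 0.14 ± 0.39 (adjusted p = 0.901), Rag2 by -0.66 ± 0.75 (adjusted p = 0.710) and Dntt by -0.55 ± 1.24 (adjusted p = 0.877). Of all genes tested, 8.73% were called. The call of Arpp21 was kept with any 1 of the 6 libraries left out. ILC2 markers (6 of 6 measured) summed to 7155 to 7845 in BCL11b+ID2+ and 2026 to 2351 in BCL11b+ID2-, where Areg was at 0, and their part in the result was not tested.

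Within BCL11b- cells at E19.5, Rag2 and Arpp21 were both lower in the ID2+ gate. Rag2 had means of 9.92 ± 8.68 (n = 3) and 181 ± 47.0, 18.3-fold apart (log2 difference -4.82 ± 0.75, adjusted p = 6.32e-05, limma). Arpp21 had means of 26.3 ± 22.5 and 143 ± 5.08, 5.44-fold apart (-2.89 ± 0.58, adjusted p = 0.000986). Rag1 differed by 0.48 (adjusted p = 0.471) and Dntt by -0.39 (adjusted p = 0.892), with 15.9% of genes called. Both calls were kept with any 1 of the 6 libraries left out. NK-cell and ILC1 markers (7 of 7 measured) summed to 16617 to 20299 in BCL11b-ID2+ and 110 to 257 in BCL11b-ID2-, none at 0 in either gate, and their part in the result was not tested.

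The ID2 difference of Rag2 was unequal between the BCL11b gates at E19.5. The interaction was 4.16 ± 1.06 on the log2 scale (adjusted p = 0.0143, limma), and 9.28% of all genes tested were called in it. Rag2 fell in ID2+ cells among BCL11b- cells, while among BCL11b+ cells it started from 28.7 ± 15.9 and reached 16.4 ± 3.16. The interaction was -0.33 for Rag1, -0.40 for Arpp21 and -0.16 for Dntt (adjusted p = 0.789, 0.839 and 0.972, limma), none of them called. The call of Rag2 was kept with any 1 of the 12 libraries left out.

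Between the ID2- gates at E19.5, Rag2 was lower in BCL11b+ cells, at 28.7 ± 15.9 (n = 3) against 181 ± 47.0 in BCL11b- cells, 6.31-fold (log2 difference -2.71 ± 0.75, adjusted p = 0.0150, limma). Arpp21 and Rag1 had values in the other direction that missed the threshold: 1.66 ± 0.58 for Arpp21 (adjusted p = 0.0563) and 0.96 ± 0.39 for Rag1 (adjusted p = 0.0994). The libraries of the 2 gates did not overlap for these 3 genes, and 14.9% of all genes tested were called. The call of Rag2 was lost without replicate 2 or 4 of BCL11b-ID2- (adjusted p = 0.0633 and 0.0564, limma) or replicate 2 of BCL11b+ID2- (adjusted p = 0.0626). Arpp21 passed with a pseudocount of 8, in edgeR and in DESeq2 (adjusted p = 0.0209, 0.0294 and 0.00588).

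B-lineage markers, whose cells also use the recombinase, did not all move with Rag2 between the ID2- gates at E19.5. Of the 6 tested, 4 were called lower and 1 higher in BCL11b+ID2- than in BCL11b-ID2-. Of all genes tested, 14.9% were called there. In BCL11b-ID2- at E19.5 none of the 9 markers was at 0: Pax5 was at 11.6 to 34.6, Ebf1 at 42.7 to 47.6, Cd79a at 10.9 to 43.9 and Blnk at 32.9 to 36.5. Pax5, which commits cells to the B lineage, was at 0 in all 5 other gates, and 5 or 6 of the 9 were at 0 in each. The summed level went opposite to Rag2. It was 813 to 1126 in BCL11b-ID2- and 1255 to 2206 in BCL11b+ID2-, where Ighm made up most of it (1164 to 2143). Myeloid markers also stood apart, with sums of 2200 to 3331 in BCL11b-ID2- and at most 716 elsewhere. The part of either group in the Rag2 level was not tested. In DN2, where Rag2 was highest, Pax5, Ebf1, Cd79a, Vpreb1 and Blnk were at 0.

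DN2 cells at E19.5 held more of both recombinase subunits than BCL11b+ID2- cells. Rag2 had means of 488 ± 92.0 (n = 3) and 28.7 ± 15.9, 17.0-fold apart, and rose by 4.15 ± 0.75 on the log2 scale (adjusted p = 0.000421, limma). Rag1 had means of 744 ± 385 and 215 ± 31.2, 3.46-fold apart (1.66 ± 0.39, adjusted p = 0.00414). Arpp21 differed by 0.80 (adjusted p = 0.394) and Dntt by -1.70 (adjusted p = 0.398). Of all genes tested, 16.2% were called. Both calls were kept with any 1 of the 6 libraries left out. Markers of other lineages moved in the same comparison. The summed level of 7 NK cell and ILC1 markers was 864 to 1802 in DN2 and 4754 to 5972 in BCL11b+ID2-, with 2 called lower and Ncr1 and Tbx21 at 0 in 1 gate each. That of 6 ILC2 markers was 455 to 711 and 2026 to 2351, with 2 called lower and Areg at 0 in both. The 9 myeloid markers summed to 196 to 304 and 5.21 to 122, with 2 called higher, and 4 and 2 of them at 0. The part of these cells in the Rag differences was not tested.

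The BCL11blowID2low gate was below BCL11b-ID2- in Rag2, at 34.7 ± 11.2 (n = 3) against 181 ± 47.0, 5.22-fold (log2 difference -2.37 ± 0.75, adjusted p = 0.0363, limma), with 14% of genes called. That call was lost without any 1 of the 6 libraries, at adjusted p = 0.0502 to 0.120. Rag1 differed by 1.08 ± 0.39 (adjusted p = 0.0644), Arpp21 by -0.96 (adjusted p = 0.323) and Dntt by 1.80 (adjusted p = 0.395). Against BCL11b+ID2-, Arpp21 was 5.91-fold lower in BCL11blowID2low, at 81.8 ± 48.2 against 484 ± 211 (-2.62 ± 0.58, adjusted p = 0.00690), with 6.91% of genes called. Without replicate 1 of BCL11b+ID2- the adjusted p of Arpp21 was 0.0524. Rag1, Rag2 and Dntt differed by 0.12, 0.34 and 0.42 (adjusted p = 0.908, 0.853 and 0.900, limma). Between the ID2+ gates, none of the 4 was called at E19.5: the values were 0.63 for Rag1, 1.45 for Rag2, 1.27 for Arpp21 and 1.22 for Dntt (adjusted p = 0.512, 0.382, 0.286 and 0.762), with 6.03% of genes called.

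Divided by exon length in kb, so that genes could be set beside each other, the level of Rag1 against Rag2 differed by gate. At E15.5 the ratio of Rag1 to Rag2 per kb was 0.584 to 0.889 in BCL11b+ID2- libraries and 0.340 and 0.676 in DN2. It was 0.0319 to 0.534 in BCL11b-ID2-. In the ID2+ gates at E15.5, where reads were few, it ranged from 0.0399 to 45.0 and from 0.104 to 3.63. At E19.5 it was 0.255 to 0.395 in BCL11b-ID2- and 0.547 to 1.15 in DN2, which were the gates with the most Rag2. It was 2.19 to 5.93 in BCL11b+ID2-, 2.81 to 4.71 in BCL11blowID2low and 5.13 to 9.55 in BCL11b+ID2+. In BCL11b-ID2+ it was 3.42 and 8.50 in 2 libraries, the other being listed at 0 for Rag2. No library of BCL11b-ID2- or DN2 overlapped those of the other 4 gates at E19.5. The ratio is given as a description, and the exon bases shared with B230118H07Rik bear on it. That gene had a mean of 24.4 in BCL11b-ID2-, 26.4 in DN2 and 24.7 in BCL11b-ID2+ at E19.5, and 4.096 to 7.48 in the other gates. At E15.5 it was at 525 in replicate 3 of BCL11b+ID2-, the library with the lowest ratio of that gate, and at 4.37 and 0 in the others. It was also at 139 in replicate 2 of BCL11b-ID2+, which had the highest ratio of its gate. The part of these reads in the ratio was not tested.

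**Figure D4:**
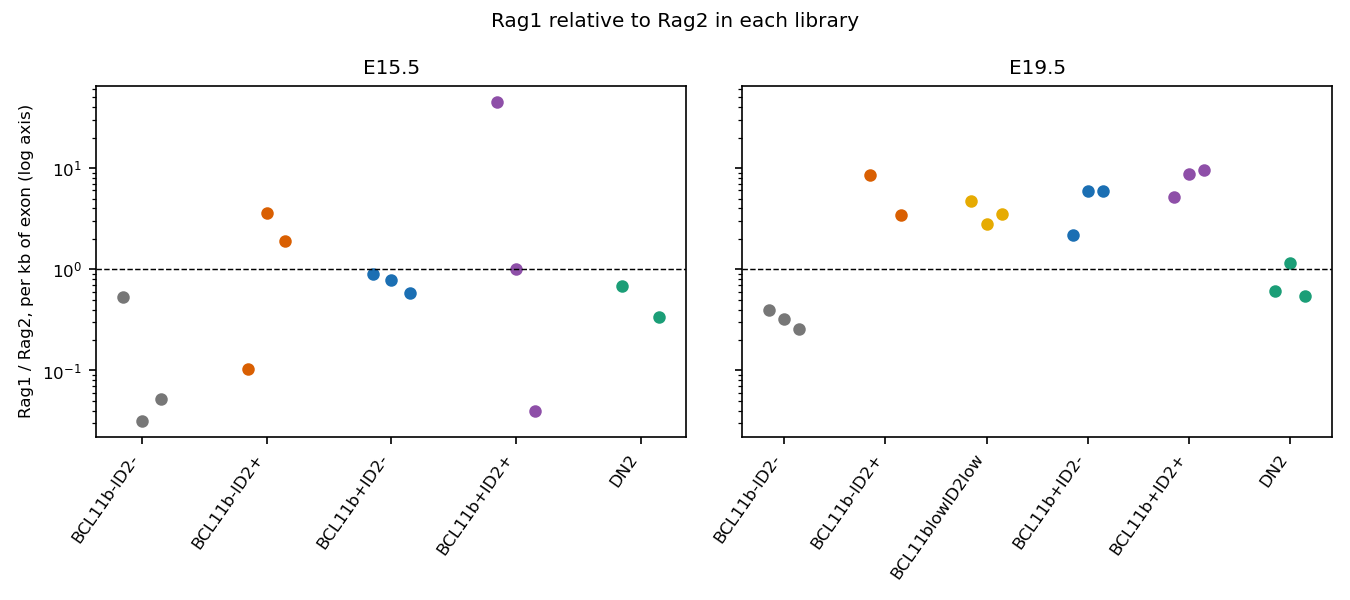
Ratio of Rag1 to Rag2, each as normalised counts per kb of exon (y axis, log scale), with 1 point for each library by gate and stage; a library with no Rag2 reads has no point. At E19.5 the BCL11b-ID2- and DN2 points lie at 0.255 to 1.15 and the other gates above 2.

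The exon length used here merges all annotated exons, in 35 blocks for Arpp21 and in 2 and 3 for Rag1 and Rag2. A transcript that uses only some of them is understated, which limits the place of Arpp21 in these orders. Per kb of exon, mean levels at E15.5 in BCL11b+ID2- were 1441 for Rag2, 1095 for Rag1 and 202 for Arpp21. In DN2 they were 1368, 598 and 126. At E19.5 the means per kb in DN2 were 142 for Rag2, 113 for Rag1, 48.4 for Arpp21 and 1.37 for Dntt. In BCL11b+ID2- at E19.5 the order was different, with 32.5 for Rag1, 27.7 for Arpp21, 8.39 for Rag2 and 7.07 for Dntt.

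Across libraries, Rag2 and Arpp21 were the most alike pair at both stages, with r = 0.86 (rho 0.90) over 14 libraries at E15.5 and r = 0.79 (rho 0.82) over 18 at E19.5, on log2 values. Rag1 and Rag2 had r = 0.76 (rho 0.78) at E15.5 and r = 0.42 (rho 0.30) at E19.5. Rag1 and Arpp21 had r = 0.75 (rho 0.71) and r = 0.49 (rho 0.33). Dntt had r from -0.08 to 0.13 with the others. These are descriptions over libraries that share gates, depth and scaling.

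Among 6179 genes reaching 100 normalised counts in at least 3 libraries, those most alike in pattern were different for each gene. At E15.5 they were Cd24a, Marcks and Hivep3 for Rag1 (r = 0.92, 0.91 and 0.90). Cd24a, a surface glycoprotein of immature lymphocytes, had means of 16352 in BCL11b+ID2-, 15253 in DN2 and 6347 in BCL11b-ID2-, and its ID2+ means were 1541 with BCL11b+ and 583 with BCL11b-. For Rag2 they included Adgrg1 and Actn1 (r = 0.92 for both), and for Arpp21 Khdc1a, Trbv13-2 and Rras2 (r = 0.93, 0.91 and 0.91). The lists depended on the correlation used. By Spearman rank correlation Adgrg1 was 95th for Rag2 (rho 0.73). The 3 genes nearest to Rag2 by r and the 3 nearest by rho shared 0.

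At E19.5 the genes most like Rag1 were Themis, Dhx15 and Fkbp5 (r = 0.82, 0.75 and 0.75 over 18 libraries). By rank correlation Fkbp5 was 47th (rho 0.56). Themis, a thymocyte signalling protein, had means of 621 in DN2, 325 in BCL11b+ID2- and 34.4 in BCL11b-ID2-. Rag2 was most like Metap2, Cdc27 and Mcm7 (r = 0.92, 0.89 and 0.88). Mcm7, a subunit of the replicative helicase, had means of 445 in DN2, 366 in BCL11b-ID2- and 155 in BCL11b-ID2+. Arpp21 was most like Usp11 and Trbv13-2 (r = 0.90 and 0.89). Trbv13-2, a T-cell receptor beta variable segment, was among the 3 nearest to Arpp21 at both stages, with means of 230 in DN2 and 119 in BCL11b+ID2- at E19.5. For Dntt they were Mdm2, Hltf and Pde6d (r = 0.71, 0.65 and 0.65).

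End joining seals the breaks that the recombinase makes. Genes of end joining and the break response gave 0 calls among the 10 tested of 15 in every comparison at E15.5. In those comparisons only 0.0 to 0.719% of all genes were called. The list median was -2.07 in BCL11b+ID2+ against BCL11b+ID2-, beside -0.22 over all genes. At E19.5 all 15 were tested. In BCL11b+ID2+ against BCL11b+ID2-, where 8.73% of all genes were called, 0 rose and 3 fell. The list median was -0.61 beside 0.00 over all genes. The 3 were Lig4, the ligase of the join (-2.52 ± 0.57, adjusted p = 0.00521, limma), Xrcc6, the Ku70 end-binding subunit (-1.41, adjusted p = 0.0207), and Dclre1c, the hairpin-opening nuclease Artemis (-1.46, adjusted p = 0.0305).

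Between the ID2- gates at E19.5, 3 of the 15 genes of end joining and the break response were higher in BCL11b+ cells. In the same comparison 1 was lower (median 0.30, all genes -0.05). Lig4 rose by 3.36 ± 0.57, from 34.0 to 342 (adjusted p = 0.000198, limma), Dclre1c by 2.202 (adjusted p = 0.000762) and Atm, the break-sensing kinase, by 1.02 (adjusted p = 0.00415). Xrcc6 fell by 1.31 (adjusted p = 0.0211), as Rag2 did. In BCL11b-ID2+ against BCL11b-ID2-, 2 rose and 2 fell (median -0.03, all genes -0.01): Xrcc6 fell by 2.67 (adjusted p = 2.33e-05) and the chromatin protein Hmgb1 by 1.61 (adjusted p = 0.00613), while Polm, a polymerase related to TdT, rose by 2.84 (adjusted p = 0.0379) and Atm by 0.70 (adjusted p = 0.0466). In DN2 against BCL11b+ID2-, 2 rose and 1 fell (median -0.54, all genes -0.01). Xrcc5, the Ku80 partner of Xrcc6, rose by 1.178 (adjusted p = 0.0123) and Xrcc6 by 1.16 (adjusted p = 0.0409), and Dclre1c fell by 1.53 (adjusted p = 0.0147). These 4, 4 and 3 calls among 15 genes stand beside 14.9%, 15.9% and 16.2% of all genes called, so the number called in DN2 was near that of genes at large.

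In BCL11blowID2low, Xrcc6 was 2.48 below BCL11b-ID2- on the log2 scale (a difference of -2.48, adjusted p = 6.66e-05, limma), and H2afx, the histone marked at breaks, and Polm were higher by 1.05 and 3.71 (adjusted p = 0.00557 and 0.00752). The list median there was 0.29, beside -0.14 over all genes. Against BCL11b+ID2-, 1 gene, Lig4, was lower (-3.57, adjusted p = 0.000398; median 0.06, all genes -0.06). The interaction called Atm (-1.43, adjusted p = 0.00810, limma) and Dclre1c (-1.99, adjusted p = 0.0373, limma), with 0 called between the ID2+ gates. Over all genes these called 9.28% and 6.03%.

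**Figure D5:**
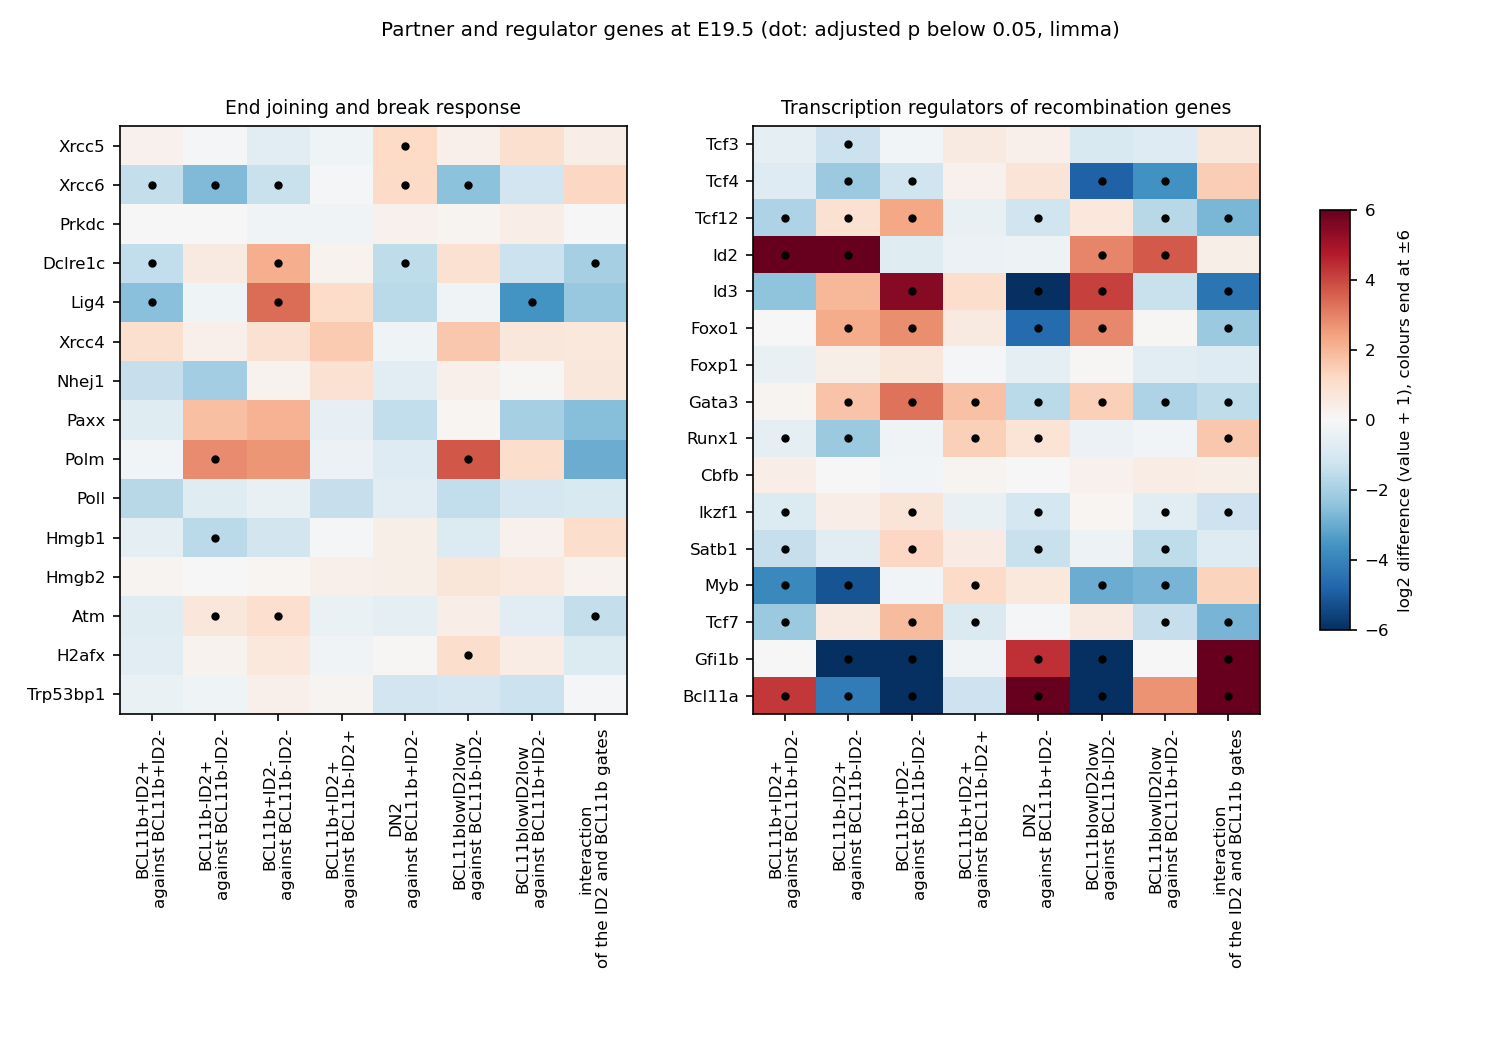
Log2 differences at E19.5 (colour, log2(value + 1) scale, colours ending at 6 in either direction), with genes in rows and comparisons in columns. Genes of end joining and the break response are on the left and transcription regulators on the right. A dot marks an adjusted p below 0.05 in limma. The Myb cells are blue in both ID2 comparisons and in both comparisons of BCL11blowID2low. In the left panel the column between the ID2+ gates has no dot.

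Among 17 transcription regulators of recombination genes, 14 were tested at E15.5, with 1 call in 1 comparison and 0 in the other 5. The share of all genes called in a comparison there was 0.0 to 0.719%. Myb, a progenitor factor that also acts on Rag gene expression, was at 432 in BCL11b+ID2+ against 6914 in BCL11b+ID2- (-6.07 ± 1.04, adjusted p = 0.00580, limma). The list median in that comparison was -0.52, beside -0.22 over all genes. At E19.5, 16 were tested. In BCL11b+ID2+ against BCL11b+ID2-, 2 rose and 6 fell (median -0.58, all genes 0.00). Myb fell by 3.87 ± 0.31, from 1021 to 74.8 (adjusted p = 1.94e-08). Tcf7, which encodes TCF1, fell by 2.24 (adjusted p = 3.17e-07) and Tcf12, the E protein HEB, by 1.85 (adjusted p = 5.25e-06). Id2, the sorted gene, and Bcl11a were the 2 that rose.

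In BCL11b-ID2+ against BCL11b-ID2- at E19.5, 4 regulators rose and 6 fell (median 0.19, all genes -0.01). Myb fell by 5.20 ± 0.31, from 1163 to 31.2 (adjusted p = 9.17e-11, limma), and Runx1 by 2.21 (adjusted p = 7.58e-09). Foxo1, a factor that activates Rag1 and Rag2 in B-cell precursors, rose by 2.21 (adjusted p = 4.82e-07) and Gata3 by 1.70 (adjusted p = 1.66e-05). Between the ID2- gates 7 were higher and 3 lower in BCL11b+ cells (median 0.25, all genes -0.05). Gata3 was higher by 3.27 (adjusted p = 1.17e-09), Foxo1 by 2.81 (adjusted p = 1.56e-08), Tcf12 by 2.31 (adjusted p = 9.03e-08) and Tcf7 by 1.91 (adjusted p = 1.37e-06). Bcl11a had means of 0.308 in BCL11b+ID2- and 999 in BCL11b-ID2- (adjusted p = 5.51e-08), and Gfi1b was listed at 0 against 96.6 (adjusted p = 4.05e-06).

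In DN2 against BCL11b+ID2- at E19.5, 3 regulators rose and 6 fell (median -0.21, all genes -0.01). Foxo1 fell by 4.62, from 787 to 31.6 (adjusted p = 3.00e-12, limma), in the comparison in which Rag1 and Rag2 rose. Gata3 fell by 1.60 (adjusted p = 4.50e-05), Satb1, a chromatin organiser of thymocytes, by 1.35 (adjusted p = 0.000292) and Ikzf1 by 1.04 (adjusted p = 0.000361). Id3, an E-protein inhibitor like ID2, was at 0.471 in DN2 against 224 (adjusted p = 1.68e-06). BCL11blowID2low gave 4 up and 4 down against BCL11b-ID2- and 1 up and 7 down against BCL11b+ID2-, with Myb at 152. Between the ID2+ gates 3 were higher and 1 lower in BCL11b+ cells, and the interaction called 3 up and 6 down.

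Neighbours of the Rag locus were listed to see whether the region moved as a whole. Of 6 listed symbols, 5 had a row at each stage, among them B230118H07Rik, which shares exon bases with Rag1 and Rag2. At E15.5, 3 were tested, with 0 calls, where at most 0.719% of all genes were called in a comparison. Of the 5 tested at E19.5, Prr5l, a regulator of mTOR complex signalling, was at 78.6 in BCL11b+ID2+ against 1.501 in BCL11b+ID2- (adjusted p = 0.00799, limma). It was at 71.3 in BCL11b-ID2+ against 0.960 in BCL11b-ID2- (adjusted p = 0.00185, limma), where Rag2 was called lower. Among BCL11b+ cells Rag2 was not called (-0.66, adjusted p = 0.710, limma). Ldlrad3 was listed at 0 in BCL11blowID2low against 87.6 in BCL11b-ID2- (adjusted p = 0.000373). The other 5 comparisons called 0 of the 5, and 6.03 to 16.2% of all genes.

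Genes of later alpha-beta thymocytes, in which the recombinase is used again, were tested as 5 of 10 at E15.5, with 0 calls. At most 0.719% of all genes were called in a comparison of that stage. At E19.5, 8 of 10 were higher and 0 lower in BCL11b+ID2- than in BCL11b-ID2- (median 3.30, all genes -0.05), and 1 rose and 8 fell in DN2 against BCL11b+ID2- (median -4.35, all genes -0.01). Cd8a had means of 437 in BCL11b+ID2- and 6.58 in DN2 (-6.33 ± 0.56, adjusted p = 2.61e-08, limma). Trac, the alpha-chain constant gene, had 247 and 6.36 (-5.73 ± 0.97, adjusted p = 0.000213). In the same comparison Rag2 rose, so the recombinase transcripts and these later genes went opposite ways. In BCL11b+ID2+ against BCL11b+ID2-, 0 rose and 5 fell, among them Trbc1 and Trbc2, the beta-chain constant genes (-1.83 and -1.77, adjusted p = 9.47e-07 and 1.05e-07). In BCL11b-ID2+ against BCL11b-ID2-, 1 rose and 3 fell, and Cd2 was the 1 that rose, from 10.2 to 781 (adjusted p = 7.06e-09).

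Of 8 early lymphoid progenitor genes at E19.5, 1 rose and 7 fell in BCL11b-ID2+ against BCL11b-ID2- (median -3.22, all genes -0.01), the comparison in which Rag2 and Arpp21 fell. Cd34, a surface protein of progenitors, fell from a mean of 1077 to 49.6 (adjusted p = 0.000151, limma), and Kit, the stem cell factor receptor, from 1057 to 266 (adjusted p = 1.48e-05). Il7r, which encodes the interleukin 7 receptor alpha chain, was the 1 that rose, from 160 to 1472 (adjusted p = 1.85e-07). In BCL11b+ID2+ against BCL11b+ID2-, 3 rose and 3 fell (median 0.03, all genes 0.00), and Kit rose there, from 173 to 1201 (adjusted p = 5.54e-07). Between the ID2- gates 2 were higher and 5 lower in BCL11b+ cells (median -1.96, all genes -0.05), and in DN2 against BCL11b+ID2- 4 rose and 1 fell (median 1.65, all genes -0.01).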

How the data were processed

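The 32 libraries were RNA-seq of sorted embryonic thymocytes. Per the labels' protocols, RNA extraction used the RNeasy Plus micro kit, amplification the Ovation RNA-seq System V2, shearing a Covaris M220 and barcoding Ovation Ultralow. Per the submitters' processing notes, Trim Galore 0.50, STAR 2.6.0a, DESeq2 1.18.1 and the GRCm38 build were used; the counter, annotation and strand setting are not given in the sources used here. The deposited values are a normalised signal, DESeq-normalised read counts, with 1 table for each stage. Dividing each column by the value of 1 read gave whole reads for 100% of values, within 0.01 reads. Columns at E15.5 are named by numbers alone, and each was tied to its sample through the barcode number in that sample's description. No columns belonged to other samples.

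A gene was kept where 3 or more libraries of a stage reached a value of 10 (10289 at E15.5, with 9115 removed, and 13840 at E19.5, with 12404 removed). All libraries of a stage entered 1 limma 3.58.1 model (R 4.3.3) on log2(value + 1), a scale that understates differences of low genes, with an intensity trend and robust moderation. P-values were adjusted by Benjamini-Hochberg over all genes tested in each of 14 comparisons, with a threshold of 0.05, and every adjusted p comes from this fit unless another tool is named. Stages were never tested against each other, since their tables were normalised separately. A single-gene permutation test of 3 against 3 cannot go below an exact p of 0.1. Alternatives were a pseudocount of 8, no filter, TMM scaling, edgeR 4.0.16 quasi-likelihood and DESeq2 1.42.0 on the whole reads, the replicate number as a block, and leaving out each library. The fitting code was tested on simulated data.

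The text names the 4 genes in every comparison, up to 6 called genes of each list by adjusted p, and the 3 genes most alike by Pearson correlation of log2 values, leaving out predicted, mitochondrial and ribosomal protein genes. A few genes that these rules name are not reported here. Members, lists and motifs were chosen with earlier results of these data known. Gene models came from GENCODE M21 and promoter sequences from RefSeq.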

Additional observations from a re-analysis of the deposited data

Results flagged for a closer look

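Rag2 at E19.5 had a log2 difference of ID2+ from ID2- cells of -0.66 among BCL11b+ cells and -4.82 among BCL11b- cells. The interaction was 4.16 (adjusted p = 0.0143, limma), and this test of the difference is what brought it here.

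Rag1 in DN2 (n = 2 at E15.5) against BCL11b+ID2- had a log2 difference of -0.78 ± 1.54 at E15.5 (SE, adjusted p = 0.993, limma), not called. At E19.5 it was 1.66 ± 0.39 (adjusted p = 0.00414). The libraries did not overlap at either stage, and the signs were opposite. At E15.5 the gap was narrow, from 4371 in the highest DN2 library to 4815 in the lowest BCL11b+ID2- library. Rag2 in BCL11b+ID2- against BCL11b-ID2- had 1.73 ± 1.35 at E15.5 (adjusted p = 0.884), also not called. At E19.5 it had -2.71 ± 0.75 (adjusted p = 0.0150), again without overlap and with opposite signs. The difference between stages was not tested for either gene, because the stages have separately normalised tables. The share of all genes whose libraries did not overlap was not counted, so the lack of overlap does not set either gene apart.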

How the results depend on the processing

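The number of the genes called changed in 6 of 14 comparisons. For E15.5 BCL11b+ID2+ against BCL11b+ID2- it was 3 in limma, 2 without the filter (Arpp21 lost its call, adjusted p = 0.0527), 1 in edgeR and 1 to 3 with 1 library left out. For E15.5 BCL11b-ID2+ against BCL11b-ID2- it was 1, 2 in DESeq2 and 0 to 1 with 1 library left out. For E15.5 BCL11b+ID2- against BCL11b-ID2- it was 0, and 2 in DESeq2. Over all genes DESeq2 called 414 and 335 there, against 48 and 1 in limma. For E19.5 BCL11b+ID2- against BCL11b-ID2- it was 1, 2 with a pseudocount of 8, in edgeR and in DESeq2, and 0 to 1 with 1 library left out. For E19.5 BCL11blowID2low against BCL11b-ID2- it was 1, 0 without the filter, 2 in DESeq2 and 0 to 1 with 1 library left out, and against BCL11b+ID2- it was 1, and 0 to 1 with 1 library left out. The cause of these changes was not tested, beyond fewer libraries or more genes tested.

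Signs turned only in differences that were not called. Dntt in E19.5 BCL11blowID2low against BCL11b+ID2- was -0.28 in edgeR and -0.28 in DESeq2, and the E15.5 interaction of Rag2 was 0.74 and 0.89. With 1 library left out, the ranges that crossed 0 were as follows. In E15.5 BCL11b+ID2+ against BCL11b-ID2+ they were -0.33 to 2.102 for Rag1, -1.0003 to 1.82 for Rag2, -0.42 to 2.75 for Arpp21. In E15.5 DN2 against BCL11b+ID2- they were -0.80 to 0.49 for Rag2. In E19.5 BCL11b+ID2+ against BCL11b+ID2- they were -0.040 to 0.28 for Rag1, -1.41 to 0.57 for Dntt. In E19.5 BCL11b-ID2+ against BCL11b-ID2- they were -1.46 to 0.57 for Dntt. In E19.5 BCL11blowID2low against BCL11b+ID2- they were -0.10 to 0.39 for Rag1, -0.45 to 1.53 for Dntt. In the E15.5 interaction they were -2.73 to 0.087 for Rag2. In the E19.5 interaction they were -0.71 to 0.065 for Rag1, -1.12 to 0.96 for Dntt, -1.29 to 0.30 for Arpp21.

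Replicate numbers were not taken to pair libraries. Deviations of same-numbered libraries correlated at -0.05 to 0.04 at E15.5 (0 of 26 pairs over 0.1) and 0.00 to 0.13 at E19.5 (1 of 45), and 18 of 26 and 40 of 45 correlated best with their own number. At E19.5 the median was 0.054 for the same number and -0.020 for different numbers, a shared part that the main model does not use. With the replicate block, Rag2 in E15.5 DN2 against BCL11b+ID2- was 0.19 in place of -0.16, and no call of the 4 genes changed. For BCL11b+ID2+ against BCL11b+ID2-, the block moved the genes called in limma from 1208 to 1433 at E19.5 and from 74 to 59 at E15.5. TMM scaling changed no call or sign in the 50 tests, but it moved the median of all genes in E15.5 BCL11b+ID2- against BCL11b-ID2- from -0.32 to -0.41 and in the E15.5 interaction from -0.08 to 0.03. Depth limits Dntt in every gate and Rag2 in the low gates of E19.5.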
